A study of Mus musculus with 8 samples.

Results

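The genes described here are 10 feedback genes of the ERK pathway: the Sprouty genes Spry1, Spry2 and Spry4, the Sprouty-related genes Spred1 and Spred2, the phosphatase genes Dusp4, Dusp5 and Dusp6, and the transcription factor genes Etv4 and Etv5. They were chosen by name as a transcript readout of ERK signalling, with earlier results of these data known. Their counts beside the shares of all genes are thus a description. Each was read from the Affymetrix probe set that the platform annotation assigns to that symbol alone, and where a gene had several, from the one with the highest mean over all arrays. All 10 were found among 18193 genes with such a probe set, and all 10 passed the filter on low signals, as did 12529 genes in all.

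The cells were mouse cells of C57BL/6 background in a secondary OSKM system, which carries the reprogramming factors Oct4, Sox2, Klf4 and Myc and starts to reprogram when doxycycline is added. All groups received doxycycline, written in the labels as 2 mg per ml, and were grown in ESC medium that held 15% serum plus leukemia inhibitory factor (LIF) at 100 units per ml. The groups were CSA at day 3, DMSO at day 3, CSA at day 6 and DMSO at day 6, with 2 independent biological repeats each and 8 arrays in all. CSA, at a dose written as 10 mM, is the usual abbreviation of cyclosporin A, which binds cyclophilins and blocks the phosphatase calcineurin, the pathway that the series names as inhibited. DMSO is the control. The labels used here name neither the starting cell type nor the promoters of the transgenes. The comparisons ask how inhibition of calcineurin-NFAT signalling changes gene expression at each day.

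As background, growth factor receptors activate Ras, which acts through the kinases Raf and MEK to switch on the ERK kinases. Active ERK induces genes whose products damp the same pathway. Sprouty and Spred proteins act upstream of ERK at the level of Ras and Raf, and the Dusp proteins remove the activating phosphates from ERK itself. Etv4 and Etv5 are ETS transcription factors that are induced downstream of FGF receptors and ERK, and transcripts of all these families are widely read as a measure of ERK output. In mouse embryonic stem cells, FGF4 and ERK push cells toward differentiation, and inhibition of MEK favours the naive state.

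Promoter sequence was available from RefSeq (GRCm38.p6) for 7 of the 10 genes. The 250 bases before the annotated start are printed for Dusp6, Spry2 and Etv5, the genes with a promoter entry that were lower with CSA when the days were averaged. They are also printed for Spred2, which changed in opposite directions at day 3 and day 6. Each runs 5′ to 3′ on the gene's strand, and capitals mark each GGAA, the core read by ETS factors, and each GGAAA, the NFAT core, on either strand (TTCC and TTTCC where the match is on the other strand). GGAAA contains GGAA and overlaps it at every match, so a capital stretch can hold both and adjoining matches run together.
Dusp6, chr10:99262981-99263230, plus strand: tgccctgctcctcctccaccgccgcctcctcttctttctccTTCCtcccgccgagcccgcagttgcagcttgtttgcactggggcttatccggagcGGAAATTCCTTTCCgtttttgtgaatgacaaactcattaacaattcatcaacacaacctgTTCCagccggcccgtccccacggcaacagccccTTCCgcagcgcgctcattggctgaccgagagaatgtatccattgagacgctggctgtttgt
Spry2, chr14:105896820-105897069, minus strand: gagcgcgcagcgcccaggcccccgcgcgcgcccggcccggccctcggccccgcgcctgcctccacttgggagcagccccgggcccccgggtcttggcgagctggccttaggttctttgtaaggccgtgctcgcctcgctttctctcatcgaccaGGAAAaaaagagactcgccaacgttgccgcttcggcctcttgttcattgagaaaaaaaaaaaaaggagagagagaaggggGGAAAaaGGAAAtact
Etv5, outer start, chr16:22439571-22439820, minus strand: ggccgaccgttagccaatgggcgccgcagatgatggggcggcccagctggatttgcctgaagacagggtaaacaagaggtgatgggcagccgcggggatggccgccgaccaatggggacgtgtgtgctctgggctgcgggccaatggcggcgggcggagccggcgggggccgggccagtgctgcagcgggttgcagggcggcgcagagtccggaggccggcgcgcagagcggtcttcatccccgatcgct
Etv5, inner start, chr16:22438369-22438618, minus strand: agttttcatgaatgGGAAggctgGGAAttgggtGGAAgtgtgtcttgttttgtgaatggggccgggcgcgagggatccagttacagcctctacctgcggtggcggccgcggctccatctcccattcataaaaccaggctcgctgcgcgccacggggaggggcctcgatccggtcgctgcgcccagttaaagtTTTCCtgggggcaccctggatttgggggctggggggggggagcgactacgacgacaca
Spred2, chr11:19924192-19924441, plus strand: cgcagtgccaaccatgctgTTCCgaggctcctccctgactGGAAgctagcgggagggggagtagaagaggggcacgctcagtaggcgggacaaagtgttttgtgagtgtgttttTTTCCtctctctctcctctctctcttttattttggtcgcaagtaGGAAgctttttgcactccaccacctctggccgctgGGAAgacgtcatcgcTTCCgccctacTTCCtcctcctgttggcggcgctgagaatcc

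GGAA was present 6 times in the Dusp6 window, 3 times in that of Spry2, 0 times at the outer and 4 times at the inner start of Etv5, and 7 times in that of Spred2. GGAAA made up 2 of the matches in Dusp6, 3 in Spry2, 1 at the inner start of Etv5 and 1 in Spred2. In the windows of Spred1, Spry1 and Dusp5, which are not printed, GGAA was present 4, 1 and 3 times. Over all 32851 windows of this length, 93.4% held GGAA and 55.6% held GGAAA. The longer ETS site CCGGAA, held by 12.0% of all windows, the AP-1 site TGAGTCA (4.46%) and the cAMP response element TGACGTCA (1.55%) had 0 matches in the 8 windows of these genes. Such matches describe letters in these windows and not binding.

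Arrays of 1 group had a Pearson's r of 0.968 to 0.974 over the tested probe sets, against 0.957 to 0.963 for CSA and DMSO arrays of a shared day and 0.918 to 0.943 for arrays of different days. The array-wide median of the tested probe sets was 8.22 to 8.24 at day 3 and 8.44 to 8.47 at day 6. Marker lists are given as the summed anti-logged signal of 8 genes each. At day 6 the CSA and DMSO sums of every list were apart. At day 3 those of the fibroblast, pluripotency and endothelial lists overlapped. The keratinocyte list summed to 8728 and 9522 with CSA at day 3, against 5724 and 5889 in DMSO, and to 10605 and 10844 with CSA at day 6, against 7055 and 7159 in DMSO. The epithelial list summed to 27513 and 27794 with CSA at day 3, against 22583 and 24079 in DMSO, and to 31389 and 31587 with CSA at day 6, against 41479 and 43825 in DMSO. Its members went both ways at each day. At day 3 the mean log2 signals of Krt8, Cdh1, Cldn4, Esrp1 and Ocln were higher with CSA. Those of Epcam (8.68 with CSA, 9.04 in DMSO), Krt18 (7.44 with CSA, 7.91 in DMSO) and Krt19 (10.26 with CSA, 11.07 in DMSO) were lower. At day 6 Krt18 (9.88 with CSA, 9.49 in DMSO) and Cldn4 (11.74 with CSA, 11.67 in DMSO) were higher with CSA, and the other epithelial members were lower. At day 3 the pluripotency list summed to 1268 and 1452 with CSA, against 1123 and 1335 in DMSO. The fibroblast list summed to 23040.5 and 23064.5, against 22243.8 and 23860.5 in DMSO. At day 6 the pluripotency list summed to 1682 and 1733 with CSA, against 2362 and 2605 in DMSO. The fibroblast list then summed to 38162 and 38186, against 42235 and 42508 in DMSO. At day 6 Sox2 (5.76 with CSA, 4.47 in DMSO), Zfp42 (5.95, 4.65), Twist1 (9.90, 9.75) and Fn1 (13.40, 13.23) were higher with CSA. The other members of both lists were lower, among them Pou5f1, the Oct4 gene, at 9.14 against 10.21. Oct4 and Sox2 are also reprogramming factors that these cells carry. Whether the probe sets of Pou5f1 and Sox2 read the transgenes was not examined here. The endothelial list summed to 1498 and 1643 with CSA at day 3, against 1641 and 1683 in DMSO. At day 6 it summed to 2120 and 2250 with CSA, against 1563 and 1627 in DMSO. Most of this sum was Tek, with log2 signals of 10.91 and 10.88 with CSA at day 6, against 10.51 and 10.36 in DMSO. At day 6 Cldn5, Tie1 and Vwf were lower with CSA, and Pecam1, Cdh5, Kdr and Emcn were higher. The macrophage and blood list summed to 648 and 669 with CSA at day 3, against 736 and 838 in DMSO. At day 6 it summed to 936 and 959 with CSA, against 851 and 894 in DMSO. Members of this list and of the keratinocyte list also went both ways at each day. All 8 markers were above the filter in the fibroblast and epithelial lists, 6 in the keratinocyte, 5 in the macrophage and blood, 4 in the pluripotency and 3 in the endothelial list, and none was at 0 on any array. The part of these shifts in the results below was not tested, and in bulk RNA fewer cells of a type and less RNA per cell cannot be told apart.

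With CSA, Etv4 and Etv5 were lower at both days. Dusp6, the ERK-specific phosphatase of the cytoplasm, was lower at day 6 and Spry2 was lower at day 3. Etv4 had the largest difference of the 10 genes, 2.54-fold lower with CSA at day 3 and 1.93-fold lower at day 6. Spred2 was slightly higher with CSA at day 3 and slightly lower at day 6, and Spred1 was lower at day 6. Spry1, Spry4, Dusp4 and Dusp5, each read from its brightest probe set, did not pass the test at either day. A dimmer Spry4 probe set was lower with CSA at day 6 (-1.07, adjusted p = 0.0388).

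At day 3, 1 of the 10 genes was higher with CSA and 3 were lower at an adjusted p under 0.05, against 7.14% higher and 5.52% lower among all 12529 genes. At day 6, 0 were higher and 5 lower, against 6.41% and 6.11% of all genes. Averaged over both days, 0 were higher and 4 lower, against 9.68% and 8.87% of all genes. The 6 genes that did not pass over both days included 1 above and 5 below 0. The median difference of the 10 genes was -0.09 on the log2 scale at day 3, -0.30 at day 6 and -0.13 over both days, beside a median of -0.00 at day 3, -0.01 at day 6 and -0.01 over both days for all genes tested. At day 6 all 10 values were below 0, from -0.95 to -0.11, where 48.6% of all genes were above 0. Spry2 was above 0 at day 6 with its probe sets averaged (0.62) or without DMSO replicate 1 of day 6 (0.037). At day 3 the values of the 10 genes ran from -1.35 to 0.52.

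**Figure D1:**
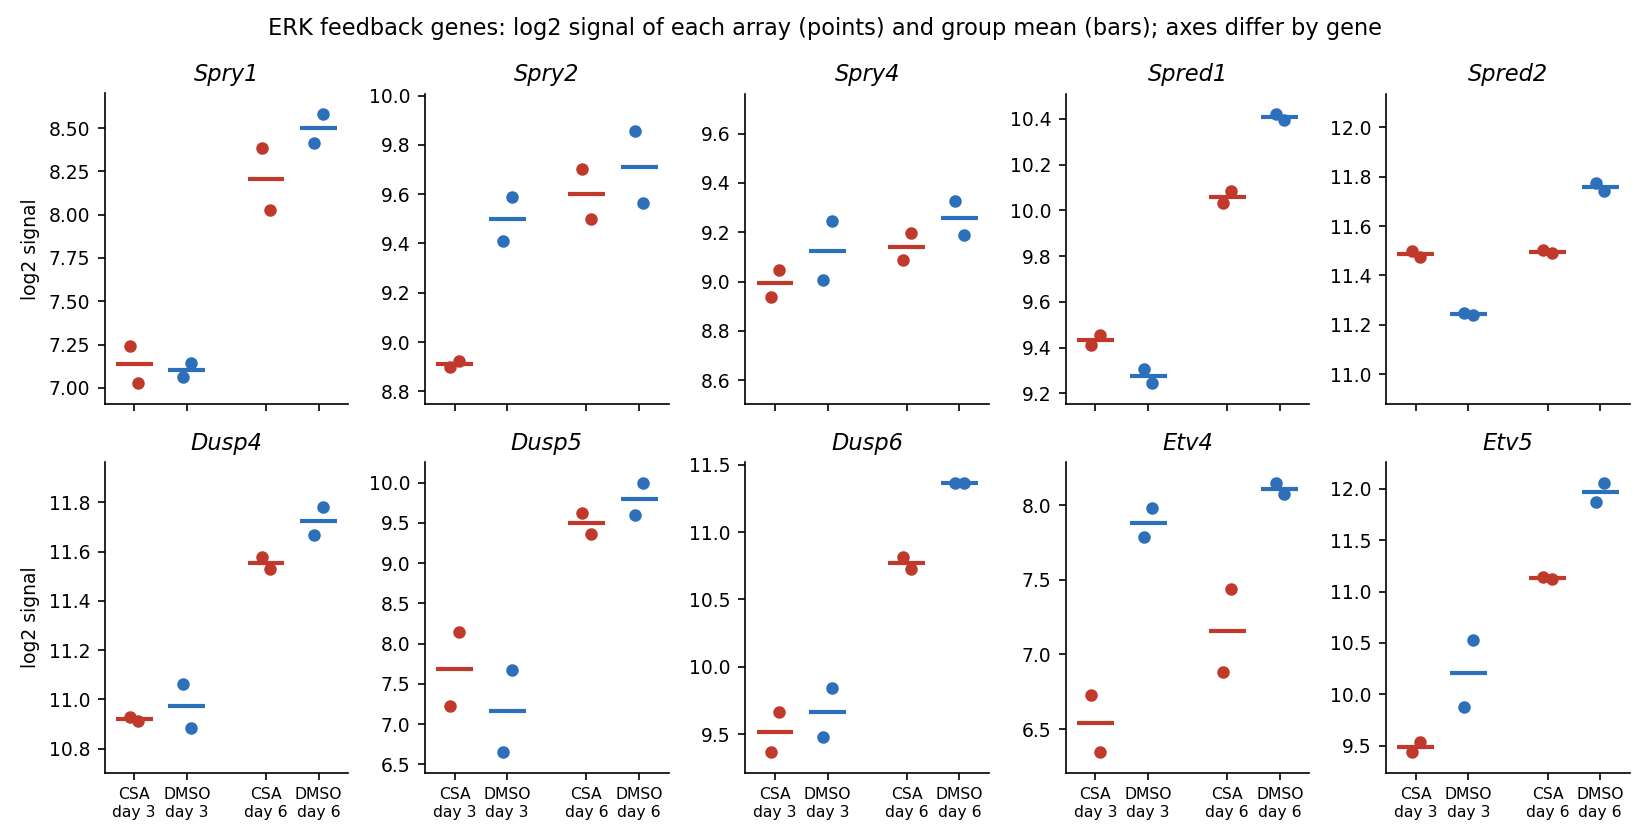
Log2 signal (vertical axis, a separate range for each gene) of the 10 genes on each of the 8 arrays, with points for arrays and bars for group means. The CSA arrays of Etv4 and Etv5 lie below the DMSO arrays of the same day at both days, and those of Dusp6 only at day 6.

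The Etv genes were the members that passed at both days in the same direction. Etv4 (chr11:101769747-101785310; gene positions are those of GRCm38.p6) had log2 signals of 6.73 and 6.35 with CSA at day 3, against 7.79 and 7.98 in DMSO. At day 6 it had 6.88 and 7.44 with CSA, against 8.15 and 8.07 in DMSO. Every CSA array, of either day, was below every DMSO array, and the CSA arrays of day 6 differed from each other by more than the other pairs. The difference was -1.35 ± 0.26 at day 3 (limma's moderated SE, adjusted p = 0.00803) and -0.95 ± 0.26 at day 6 (adjusted p = 0.0414). Over both days it was -1.15 ± 0.18 (adjusted p = 0.00176), lower on 4 of 4 CSA arrays, and it passed under all 19 alternative settings, with adjusted p up to 0.0398.

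Etv5 (chr16:22381313-22439570) had log2 signals of 9.44 and 9.54 with CSA at day 3, against 9.88 and 10.53 in DMSO. At day 6 the signals were 11.14 and 11.12 with CSA, against 11.87 and 12.05 in DMSO. Within each day both CSA arrays were below both DMSO arrays, and the DMSO pair of day 3 was the most spread. Etv5 changed by -0.72 ± 0.16 at day 3 (adjusted p = 0.0179) and by -0.83 ± 0.16 at day 6 (adjusted p = 0.00885), or 1.64-fold and 1.78-fold lower. Without DMSO replicate 2 of day 3, the day 3 value was -0.39 (adjusted p = 0.0637). Over both days the change was -0.77 ± 0.12 (adjusted p = 0.00114), and it passed under 18 of 19 alternative settings, the exception being the fit without the intensity trend (adjusted p = 0.0519). The CSA effects of the days did not differ detectably for Etv4 (difference 0.39 ± 0.37, adjusted p = 0.628) or Etv5 (-0.11 ± 0.23, adjusted p = 0.840).

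Among the phosphatases, Dusp6 was the 1 member to change with CSA. Dusp6 (chr10:99263231-99267489) had log2 signals of 9.37 and 9.67 with CSA at day 3, against 9.48 and 9.85 in DMSO. At day 6 it had 10.81 and 10.73 with CSA, against 11.36 and 11.36 in DMSO. The groups overlapped at day 3 and were apart at day 6. The difference was -0.14 ± 0.13 at day 3 (adjusted p = 0.578) and -0.59 ± 0.13 at day 6 (adjusted p = 0.0165, 1.51-fold lower). The day 6 difference minus that of day 3 was -0.45 ± 0.19 and did not pass (adjusted p = 0.222). Over both days Dusp6 was lower by a log2 difference of -0.37 ± 0.09 (adjusted p = 0.0221).

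Dusp4 (chr8:34807610-34819894) and Dusp5 (chr19:53529145-53541809) encode phosphatases of the nucleus. Dusp4 had 10.93 and 10.91 with CSA at day 3, against 11.06 and 10.89 in DMSO, and 11.58 and 11.53 with CSA at day 6, against 11.67 and 11.78 in DMSO. Its differences of -0.05 ± 0.08 and -0.17 ± 0.08 did not pass (adjusted p = 0.770 at day 3 and 0.248 at day 6), although the groups did not overlap at day 6. Dusp5 had 7.22 and 8.15 with CSA at day 3, against 6.66 and 7.67 in DMSO, and 9.63 and 9.36 with CSA at day 6, against 9.60 and 10.00 in DMSO. Replicates of Dusp5 differed by about 1 on the log2 scale at day 3, the widest spread of the 10 genes. The fit shares 1 estimate of the spread over the 4 groups, so the SE is the same at both days. The difference at day 3 was 0.52 ± 0.34 (adjusted p = 0.402), with a 95% interval of -0.22 to 1.26. At day 6 it was -0.31 ± 0.34 (adjusted p = 0.651).

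The Sprouty genes differed among themselves. Spry2 (chr14:105891947-105896819) had 8.90 and 8.92 with CSA at day 3, against 9.41 and 9.59 in DMSO. The day 6 signals were 9.70 and 9.50 with CSA, against 9.86 and 9.56 in DMSO, and here the groups overlapped. Spry2 changed by -0.59 ± 0.13 at day 3 (adjusted p = 0.0183) and was at -0.11 ± 0.13 at day 6 (adjusted p = 0.693). The difference between the days, 0.48 ± 0.19, did not pass (adjusted p = 0.201). Over both days Spry2 was at -0.35 ± 0.10 (adjusted p = 0.0312), and 0.17 (adjusted p = 0.594) when its probe sets were averaged.

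Spry1 (chr3:37639947-37644599) had 7.24 and 7.03 with CSA at day 3, against 7.06 and 7.14 in DMSO, and 8.39 and 8.03 with CSA at day 6, against 8.42 and 8.58 in DMSO. It was at 0.03 ± 0.21 at day 3 (adjusted p = 0.957) and -0.29 ± 0.21 at day 6 (adjusted p = 0.456). Both CSA arrays of day 6 were below both DMSO arrays, with a gap smaller than the distance between the CSA replicates. Spry4 had 8.94 and 9.05 with CSA at day 3, against 9.01 and 9.24 in DMSO, and 9.09 and 9.20 with CSA at day 6, against 9.33 and 9.19 in DMSO. The groups overlapped at both days, and over both days the difference was -0.12 ± 0.09 (adjusted p = 0.441, 95% interval -0.33 to 0.08). With its probe sets averaged, dimmer ones included, Spry4 was at -0.70 and passed (adjusted p = 0.0294).

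The Spred genes had small differences and close replicates. Spred2 (chr11:19924442-20024026) had 11.50 and 11.47 with CSA at day 3, against 11.25 and 11.24 in DMSO, and 11.50 and 11.49 with CSA at day 6, against 11.77 and 11.74 in DMSO. The CSA arrays of the days were nearly equal while the DMSO arrays lay on either side of them. Spred2 thus changed by 0.24 ± 0.07 at day 3 (adjusted p = 0.0467) and by -0.26 ± 0.07 at day 6 (adjusted p = 0.0333), and its CSA effects differed by -0.50 ± 0.10 between the days (adjusted p = 0.0161). That was 1 of 10 genes with a lower effect at day 6 and 0 with a higher one, against 3.43% and 2.36% of all genes.

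Spred1 (chr2:117121071-117182279) had 9.41 and 9.46 with CSA at day 3, against 9.31 and 9.24 in DMSO, and 10.03 and 10.08 with CSA at day 6, against 10.42 and 10.40 in DMSO. As in Spred2, the CSA arrays were above the DMSO arrays at day 3 and below them at day 6. The difference was 0.16 ± 0.10 at day 3 (adjusted p = 0.375) and -0.35 ± 0.10 at day 6 (adjusted p = 0.0444), and the difference between the days was -0.51 ± 0.14 (adjusted p = 0.0649).

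**Figure D2:**
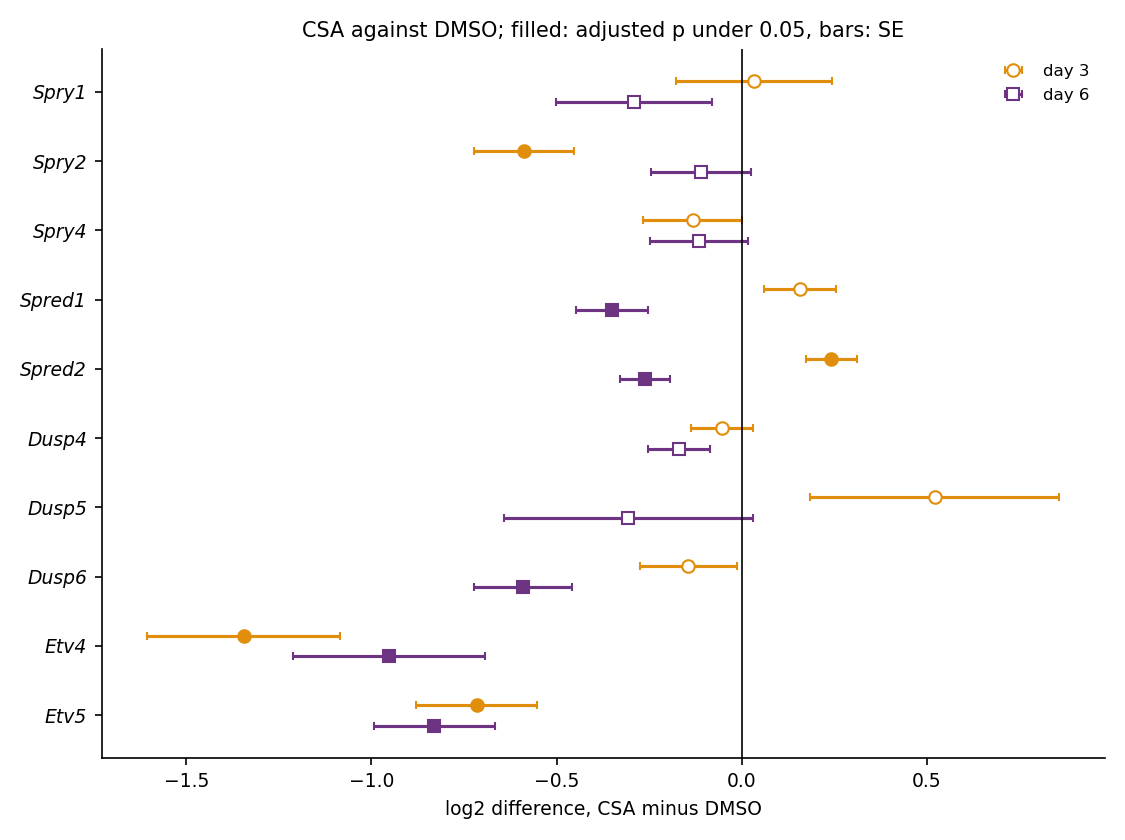
Log2 difference of CSA minus DMSO (horizontal axis) for each gene at day 3 (circles) and day 6 (squares), with bars of 1 moderated SE and filled symbols for an adjusted p under 0.05. Etv4 and Etv5 are filled at both days, and the day 6 symbols of all 10 genes lie left of 0. Of all genes tested, 48.6% were above 0 at day 6.

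The calls at a single day rested on few arrays. Without the intensity trend 0 of the 10 genes passed at either day, where 442 and 694 of all 27022 probe sets did. With its probe sets averaged, the one below the filter included, Etv4 at day 3 was at -0.85 and did not pass (adjusted p = 0.332). Leaving out DMSO replicate 2 or CSA replicate 2 of day 3 left 0 calls at day 3, without CSA replicate 1 there was 1, and leaving out 1 array of day 6 left 0 to 1 calls at that day. The Etv4 call of day 6 ended in 7 of 16 alternatives (adjusted p up to 0.204), among them no filter (0.0657), the replicate block (0.0602) and 3 of the 4 fits that lacked an array of day 6. The Spred2 call of day 3 ended whichever array of day 3 was left out, and the Spred1, Spred2 and Dusp6 calls of day 6 in each fit lacking an array of day 6 (adjusted p up to 0.209 for Spred2 at day 3, and up to 0.342, 0.560 and 0.134 at day 6 over all settings).

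The second comparison followed the genes from day 3 to day 6. With CSA, 7 of the 10 rose and 0 fell, against 20.2% and 15.8% of all genes. In DMSO 7 also rose and 0 fell, against 26.1% and 19.6% of all genes. The median difference of day 6 minus day 3 was 0.66 with CSA and 0.94 in DMSO, beside 0.08 in both treatments for all genes tested. The genes that rose in both treatments were Spry1, Spred1, Dusp4, Dusp5, Dusp6 and Etv5, while Spry2 passed in CSA but not in DMSO and Spred2 in DMSO but not in CSA.

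Dusp5 had the largest rise, by 1.81 ± 0.34 with CSA (adjusted p = 0.00201) and by 2.64 ± 0.34 in DMSO (adjusted p = 9.01e-05, 6.21-fold). Etv5 rose by 1.64 ± 0.16 with CSA (adjusted p = 3.36e-05) and by 1.76 ± 0.16 in DMSO (adjusted p = 9.33e-06), more than 3-fold in both. Dusp6 rose by 1.25 ± 0.13 with CSA (adjusted p = 5.06e-05) and by 1.70 ± 0.13 in DMSO (adjusted p = 2.83e-06). Spry1 rose by 1.07 ± 0.21 with CSA (adjusted p = 0.00283) and by 1.39 ± 0.21 in DMSO (adjusted p = 0.000297).

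Smaller rises were seen for the remaining genes that passed. Dusp4 rose by 0.63 ± 0.08 with CSA and by 0.75 ± 0.08 in DMSO (adjusted p = 0.000212 and 3.31e-05), and Spred1 by 0.62 ± 0.10 with CSA and by 1.13 ± 0.10 in DMSO (adjusted p = 0.000672 and 5.63e-06). With its probe sets averaged, the Spred1 rise with CSA was 0.40 and did not pass (adjusted p = 0.373). Spry2 rose by 0.69 ± 0.13 with CSA (adjusted p = 0.00270) and was at 0.21 ± 0.13 in DMSO (adjusted p = 0.237). Spred2 was at 0.01 ± 0.07 with CSA (adjusted p = 0.931) and rose by 0.51 ± 0.07 in DMSO (adjusted p = 0.000117), but a dimmer Spred2 probe set rose with CSA by 1.13 (adjusted p = 0.00998).

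Etv4 and Spry4, by their brightest probe sets, did not pass in either treatment. Etv4 was at 0.62 ± 0.26 with CSA (adjusted p = 0.0949) and 0.23 ± 0.26 in DMSO (adjusted p = 0.527), so its difference between treatments at a day exceeded that between the days. Spry4 was at 0.15 ± 0.13 with CSA (adjusted p = 0.438, or 0.77 and 0.0489 with its probe sets averaged) and 0.13 ± 0.13 in DMSO (adjusted p = 0.463). A dimmer Spry4 probe set rose by 1.24 with CSA and 1.10 in DMSO (adjusted p = 0.0102 and 0.0131). The remaining tested one did not pass in either treatment. The interaction given above for Spred2 is also the test of whether the rise differed between treatments; for the other 9 genes that difference did not pass.

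Scaling bears on the comparison of days. Centring each array on its median over all probe sets shifted every difference of day 6 minus day 3 by -0.36 with CSA and by -0.22 in DMSO, and quantile normalization shifted the median by -0.14 and -0.13. After centring, the rises of Spry2 and Spred1 with CSA no longer passed and Spred2 was lower with CSA at day 6 than at day 3 (-0.35, adjusted p = 0.00338), while the 7 calls in DMSO and the rises of Spry1, Dusp4, Dusp5, Dusp6 and Etv5 with CSA held under every alternative run.

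**Figure D3:**
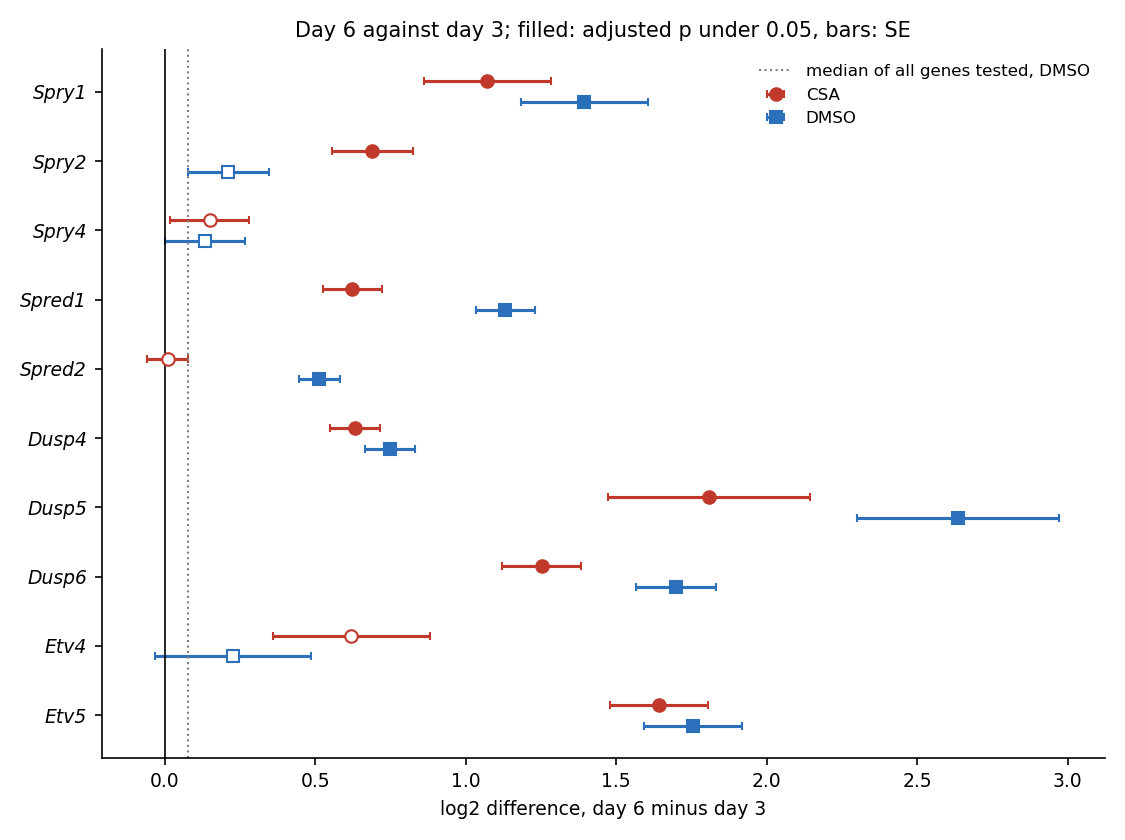
Log2 difference of day 6 minus day 3 (horizontal axis) for each gene in CSA (circles) and DMSO (squares), with bars of 1 moderated SE, filled symbols for an adjusted p under 0.05 and a dotted line at the median of all genes tested in DMSO. Dusp5 is farthest to the right in both treatments, at 1.81 in CSA and 2.64 in DMSO, and Spry4 and Etv4 have open symbols in both.

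Ordered by group mean, 9 of the 10 genes had both day 6 groups above both day 3 groups, with DMSO at day 6 highest. The shares of all genes with this order, or with groups apart, were not counted, so the orders are a description. From day 3 to day 6, 55.2% of all genes tested were above 0 in DMSO and 56.4% with CSA. In Spry1, Dusp4 and Dusp6 the groups of day 3 overlapped and the others were apart, and in Dusp5 the groups overlapped within each day. In Spred1 and Etv5 all neighbouring groups were apart on every array, and in Spry4 all neighbouring groups overlapped. Etv4 was ordered by treatment instead: DMSO at day 6 (8.11), DMSO at day 3 (7.88), CSA at day 6 (7.16) and CSA at day 3 (6.54). In Spry2, CSA at day 3 (8.91) stood apart below the other 3 groups, which overlapped. In Spred2, the CSA groups (11.50 at day 6 and 11.49 at day 3) overlapped between DMSO at day 6 (11.76) and DMSO at day 3 (11.24).

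Several genes were read by more than 1 probe set, which did not always move together. The 3 probe sets of Etv5 were all lower with CSA over both days, at -0.77, -0.84 and -0.53 (adjusted p = 0.00114, 0.00187 and 0.00868). Spry4 had 3 tested probe sets. The brightest, used above, was at -0.12, but another with a mean log2 signal of 6.92 was at -0.85 ± 0.22 over both days (adjusted p = 0.0223), and this one rose from day 3 to day 6 by 1.24 with CSA and 1.10 in DMSO. The remaining one was at -0.58 ± 0.20 over both days (adjusted p = 0.0818) and passed at day 6 (-1.07, adjusted p = 0.0388). Which transcripts the Spry4 probe sets read was not examined here.

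The dimmer probe set of Spry2, with a mean log2 signal of 5.71, was at 0.69 ± 0.41 over both days (adjusted p = 0.326), opposite in sign to the brighter one. None of the other tested probe sets of Spred1 and Spred2 passed at either day with CSA, and those of Spred1 lay between -0.49 and 0.10 over both days. For Spred1, 4 of the 5 others were higher at day 6 in DMSO. The CSA calls of Spred2 thus came from 1 of its 4 tested probe sets. From day 3 to day 6 its other probe sets differed from the brightest: 1 rose with CSA (1.13, adjusted p = 0.00998), where the brightest was at 0.01, and another rose in DMSO (2.28, adjusted p = 0.00119). Spry1, Dusp4, Dusp5 and Dusp6 had 1 probe set each, and the second probe set of Etv4 was below the filter.

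**Figure D4:**
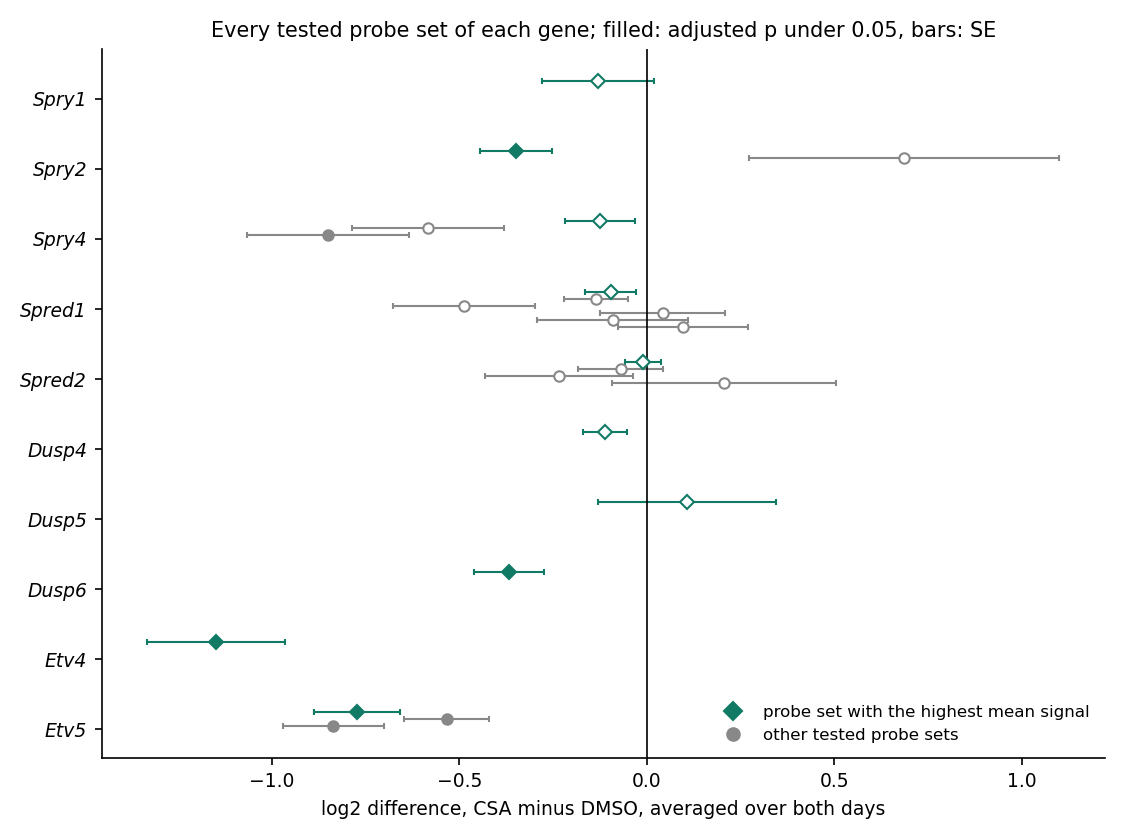
Log2 difference of CSA minus DMSO averaged over both days (horizontal axis) for every tested probe set of each gene, with bars of 1 moderated SE and filled symbols for an adjusted p under 0.05. Diamonds mark the brightest probe set of a gene, and the filled grey symbol of Spry4, at -0.85, stands apart from its diamond at -0.12.

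Other genes of the pathway were read from lists chosen by role, over both days. Among other MAP kinase phosphatases and feedback genes, 2 of 14 tested rose with CSA and 1 fell (14.3% and 7.14%, median 0.09), near the 9.68% and 8.87% of all genes. Dusp10, a phosphatase of p38 and JNK, rose by 0.96 ± 0.15 (adjusted p = 0.00168, but -0.16 with adjusted p = 0.851 when its probe sets were averaged) and Dusp3 by 0.60 ± 0.07 (adjusted p = 0.000320). Lrig1, which restrains receptors of the EGF family, fell by 0.49 ± 0.11 (adjusted p = 0.0144), but was at -0.16 (adjusted p = 0.752) without probe sets that can read several genes. The Lrig1 call also ended without CSA replicate 1 of day 3 (adjusted p = 0.0575) or DMSO replicate 1 of day 6 (adjusted p = 0.0549).

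Of 13 tested FGF ligands, receptors and adaptors 1 rose and 3 fell (7.69% and 23.1%, against 9.68% and 8.87% of all genes; median -0.08). Fgf4, the FGF of pluripotent cells, fell by 0.57 ± 0.09 (adjusted p = 0.00161) and the receptor gene Fgfr3 by 0.53 ± 0.11 (adjusted p = 0.00685). Flrt2, a membrane protein that can bind FGF receptors, rose by 0.26 ± 0.05 (adjusted p = 0.00499), with 0.56 at day 6 and -0.05 at day 3. With probe sets averaged, Fgf4 was at -0.29 (adjusted p = 0.384) and Fgfr3 at -0.037 (adjusted p = 0.927).

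Of 15 other receptor tyrosine kinases 4 rose and 0 fell (26.7% and 0%, against 9.68% and 8.87% of all genes), with a median of 0.02. The collagen receptor gene Ddr2 rose by 0.99 ± 0.06 (adjusted p = 2.38e-06), the HGF receptor gene Met by 0.33 ± 0.06 (adjusted p = 0.00581) and Axl, the GAS6 receptor gene, by 0.30 ± 0.06 (adjusted p = 0.00793, but -0.10 with adjusted p = 0.730 when its probe sets were averaged).

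Of the Ras, Raf, MEK and ERK genes 2 of 21 tested rose and 1 fell, with a median of 0.05. These shares, 9.52% and 4.76%, are at or below the 9.68% and 8.87% of all genes. Lamtor3, a scaffold for MEK and ERK at late endosomes, rose by 0.44 ± 0.07 (adjusted p = 0.00109), and Sos2, an exchange factor for Ras, by 0.34 ± 0.10 (adjusted p = 0.0441). The small GTPase gene Rras fell by 0.19 ± 0.06 (adjusted p = 0.0432). The calls of Sos2 and Rras ended when single arrays were left out, for Rras whichever array it was.

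Nuclear ERK targets and ETS factors went both ways, with 4 of 23 tested higher and 6 lower (17.4% and 26.1%, against 9.68% and 8.87% of all genes; median -0.05). Phlda1, an immediate early gene, fell by 0.44 ± 0.06 (adjusted p = 0.000371). Fosl1, an AP-1 subunit induced by ERK, rose by 0.67 ± 0.09 (adjusted p = 0.000652), as did the ETS factor gene Ets2 by 0.43 ± 0.06 (adjusted p = 0.000652). From day 3 to day 6, 14 of these 23 genes rose and 3 fell with CSA, and 14 rose and 2 fell in DMSO, where 20.2% of all genes rose with CSA and 26.1% in DMSO. Of the 15 other receptor tyrosine kinases 9 rose with CSA and 10 in DMSO, and 0 fell in either. Of the 14 other phosphatases and feedback genes 7 rose and 3 fell with CSA, and 8 rose and 2 fell in DMSO. Of the 21 Ras, Raf, MEK and ERK genes 5 rose and 1 fell with CSA, and 5 rose and 5 fell in DMSO. Of the 13 FGF genes 5 rose and 0 fell with CSA, and 2 rose and 2 fell in DMSO. When the probe sets of a gene were averaged, the calls of Fgf4, Fgfr3, Lrig1, Met, Fosl1 and Ets2 over both days ended. Without the intensity trend, those of Flrt2 (adjusted p = 0.0879), Axl (0.0749), Fgfr3 (0.0579), Met (0.0538), Sos2 (0.153) and Rras (0.150) ended. The calls of Dusp3, Ddr2, Lamtor3 and Phlda1 passed under all alternatives run.

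**Figure D5:**
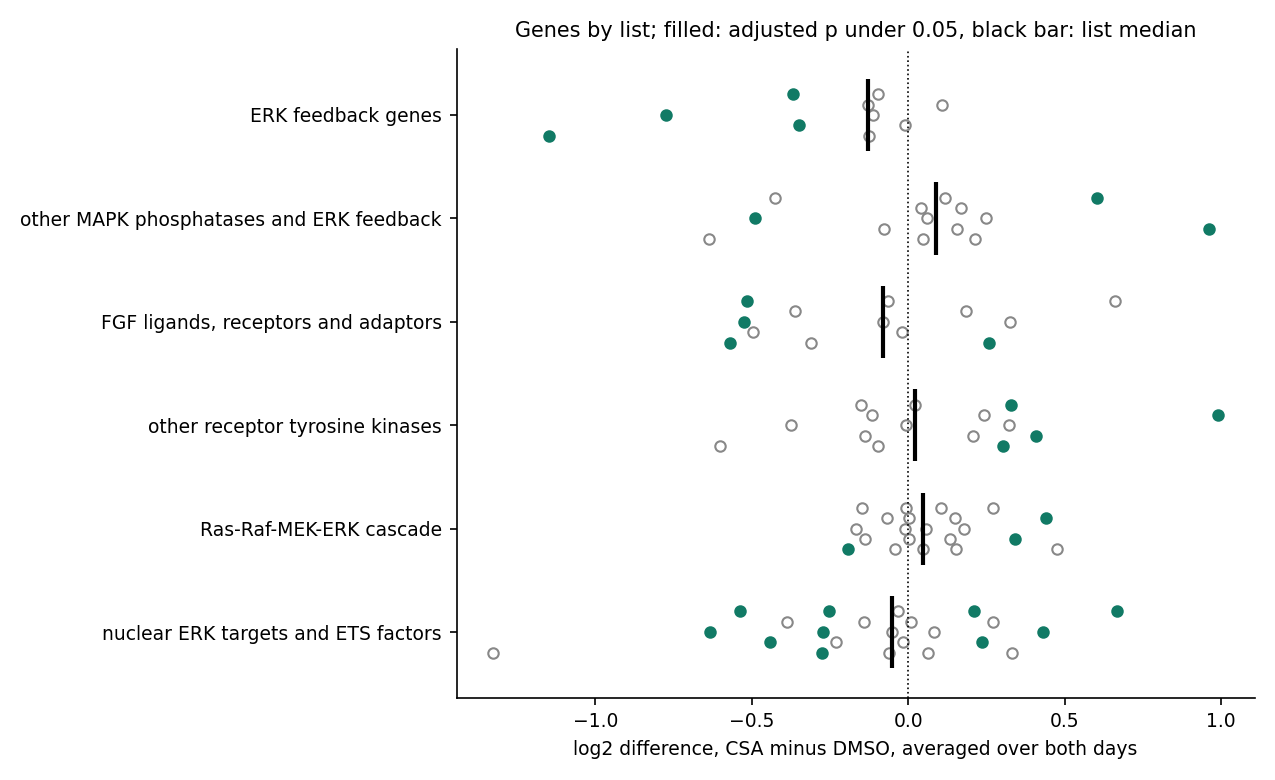
Log2 difference of CSA minus DMSO averaged over both days (horizontal axis) for each tested gene of 6 lists, with filled points for an adjusted p under 0.05 and a black bar at each list's median. The leftmost filled point is Etv4, at -1.15, and filled points lie on both sides of 0 in 4 of the 5 other lists.

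Likeness of pattern was measured by Pearson's r over the 8 arrays, which fall into 4 groups, against 12528 other genes. The genes most like Dusp6 were Msl1 (r = 0.997), Saa1 (0.995) and Aldh1a1 (0.994), which, like it, were at their highest in DMSO at day 6. Those most like Etv4 were Haus8 (0.991), Iqgap3 (0.987) and Dcaf4 (0.977), with DMSO above CSA at both days. For Spry4 the closest were Tmem94 (0.947), D630045J12Rik (0.942) and Pole (0.928), lower values that go with its narrow range. These values order genes among many and carry no test.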

How the data were processed

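RNA of 8 arrays was measured on Affymetrix 3' expression arrays. The values are log2 signals as the authors deposited them, made with MAS5 per the submitters' processing notes (the version was not given in the sources used here). No sample was left out, and detection calls and scan dates were not used here.

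Of 45037 probe sets, the 27022 whose mean reached the 40th percentile (a log2 signal of 5.37) entered the tests. The platform annotation gave 1 symbol to 34945 probe sets, several to 932 and did not list 9160. All 8 arrays entered a single limma fit (version 3.58.1, R 4.3.3) that estimates a mean for each of the 4 groups, with empirical Bayes moderation, an intensity trend and 4 residual degrees of freedom. Two-sided p-values received a Benjamini-Hochberg adjustment across every tested probe set, and 0.05 was the threshold. Percentages of all genes count each gene's brightest probe set. Values after ± are moderated standard errors with 2 arrays per group. With so few arrays, their number limits the precision. The pipeline was tested on simulated data.

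The genes and lists were chosen with earlier results of these data known. Named pathway genes are the 3 of each list with the smallest p over both days, and likeness was measured for Dusp6, Spry4 and Etv4. Alternatives covered scaling, the filter, the trend, low signals, the probe set of a gene, a replicate block and leaving out each array.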

Additional observations from a re-analysis of the deposited data

Results flagged for a closer look

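The CSA effect differed between the days, by limma's test of the interaction over all tested probe sets, for Spred2 and for 2 of the named pathway genes. For Spred2 the effect at day 6 minus that at day 3 was -0.50 ± 0.10 (adjusted p = 0.0161). For Axl it was 0.64 ± 0.13 (adjusted p = 0.0188), with a CSA effect of 0.62 at day 6 and -0.01 at day 3. For Flrt2 it was 0.61 ± 0.10 (adjusted p = 0.00691), with 0.56 at day 6 and -0.05 at day 3. Groups held 2 arrays each, so single arrays were not tested for standing apart.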

How the results depend on the processing

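Under the alternatives, 911 of the values of the 10 genes kept direction and side of the threshold, 76 lost and 5 gained a call, and 28 changed sign. Where the cause is not given by the setting itself, the cause was not tested. Of the 10 genes, 4 passed at day 3, 5 at day 6, 1 for the interaction and 4 over both days. Without the intensity trend these counts were 0, 0, 0 and 1, and all probe sets called were 442 of 2588, 694 of 2612, 0 of 1144 and 1443 of 3828. With a gene's probe sets averaged, dim ones included, the counts were 1 at day 3, 2 at day 6 and 0 for the interaction. The interaction count was 2 with median centring and 2 with the 60th percentile filter, and the day 6 count was 2 with no filter. Leaving out 1 array gave 0 to 3 at day 3, 0 to 1 at day 6, 0 to 1 for the interaction and 2 to 4 over both days. Over all probe sets, leaving out 1 array gave 1076 to 2008 calls at day 3, 1112 to 1717 at day 6 and 390 to 994 for the interaction. Equal replicate numbers did not pair the arrays (deviation correlations of -0.00344 to 0.0343), and with a replicate block 3 genes passed at day 6.

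These signs changed. With median centring Dusp4 was 0.011 at day 3, the Spry4 interaction -0.12, day 6 minus day 3 in CSA -0.21 for Spry4 and -0.35 for Spred2, and in DMSO -0.087 for Spry4 and -0.0079 for Spry2. With quantile normalization day 6 minus day 3 was -0.00052 for Spry4 in CSA, and -0.070 for Spry4 and -0.061 for Etv4 in DMSO. With probe sets averaged, Spry2 was 0.62 at day 6, Etv4 was -0.77 for the interaction and -0.43 from day 3 to day 6 in CSA, and over both days Spry2 was 0.17, Spred2 0.18, Dusp10 -0.16 and Axl -0.10. Leaving out 1 array gave -0.077 to 0.14 for Spry1, -0.14 to 0.035 for Dusp4 and -0.33 to 0.039 for Dusp6 at day 3, and -0.26 to 0.037 for Spry2 at day 6. It gave -0.10 to 0.14 for the Spry4 and -0.44 to 0.21 for the Etv5 interaction, -0.0029 to 0.023 for Spred2 from day 3 to day 6 in CSA, and -0.15 to 0.36 for Dusp5 over both days. Over both days Dusp6 passed in 13 and Spry2 in 12 of 19 alternatives.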
